A study of Rattus norvegicus with 28 samples.

Results

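Notch receptors, their ligands and their target genes were followed in the rat spinal cord after a contusion injury and after grafting of neural progenitor cells (NPCs). The set held 10 genes of the 35469 gene features on the array. They were Notch1, Notch2, Notch3, Notch4, Jag1, Jag2, Dll1, Hes1, Hes5 and Hey1, and each was read by 1 probe. They were chosen by gene name, as parts of 1 pathway, and with the lower Notch3 signal after both transplantations already known. The 2 transplantation comparisons therefore served to choose the set, and in them the 10 genes are described by their values with no test.

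Tissue came from adult female Sprague Dawley rats. The T0 group is labelled sham, while the study's text calls it uninjured. T1, T2, T4 and T8 were taken 1, 2, 4 and 8 weeks after a severe contusion of 250 kdyn at the eighth thoracic level. T1_NPC was grafted with NPCs right after the injury and taken at 1 week. T2_NPC was grafted 1 week after the injury and taken at 2 weeks. Each of the 7 groups held 4 arrays, and the study's methods give 4 animals a group for arrays. The grafted cells were cultured from injured cords of adult rats, so their own RNA is part of the tissue measured. The methods state that injured controls received cell-free medium, and that operated animals received morphine, isoflurane, enrofloxacin (Alsir), buprenorphine and tacrolimus (FK-506). Tacrolimus is described as starting a day before transplantation, so its timing in groups with no graft is not clear. The segment was 1.5 cm long and is labelled T6-T10, except in T2_NPC, where the label reads T7-T10. Whole tissue was measured, so fewer cells of a type and less RNA per cell cannot be told apart.

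Notch receptors are membrane proteins that are cut when a ligand on a neighbouring cell binds them. The freed inner part enters the nucleus and, with the DNA-binding protein RBPJ, turns on genes of the Hes and Hey families. These targets are transcription factors that hold cells back from becoming neurons. In the cord, Notch signalling is known for keeping progenitor and glial cells in their state, and Notch3 is best known from the mural cells of blood vessels.

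Each value is a log2 signal, quantile normalized by the authors, and a difference of 1 is a 2-fold change. On all 28 arrays each of the 10 probes read well above background, and none was saturated. The deposited value table and the scanner files name different samples for 16 of the 28 arrays. Each value-table column ranks the signals exactly as 1 scanner file does (Spearman correlation 1), while the next best file reaches at most 0.9926. The value table names its own samples and was used here. Results are also given for the 12 arrays on which both sources name the same sample, of which none is a T1_NPC array. If the scanner files are read under their deposited samples instead, 0 of the 35469 features are called in T1 against T0, 1 in T2 against T0, and 0 in both T4 and T8 against T0. The arrays came from 7 slides and 3 scan sessions. Sessions 1 and 2 each held arrays of all 5 time-course groups, while T1_NPC and T2_NPC each lay alone on 1 slide of session 3. Session 1 held 1 T1 array, 1 T4 array and 2 arrays each of T0, T2 and T8. These are also the time-course arrays that both sources name alike. Neuron, astrocyte, oligodendrocyte and microglia markers were well above background on all T0 arrays, in 11 of 11, 8 of 8, 6 of 6 and 7 of 7 genes.

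**Figure D1:**
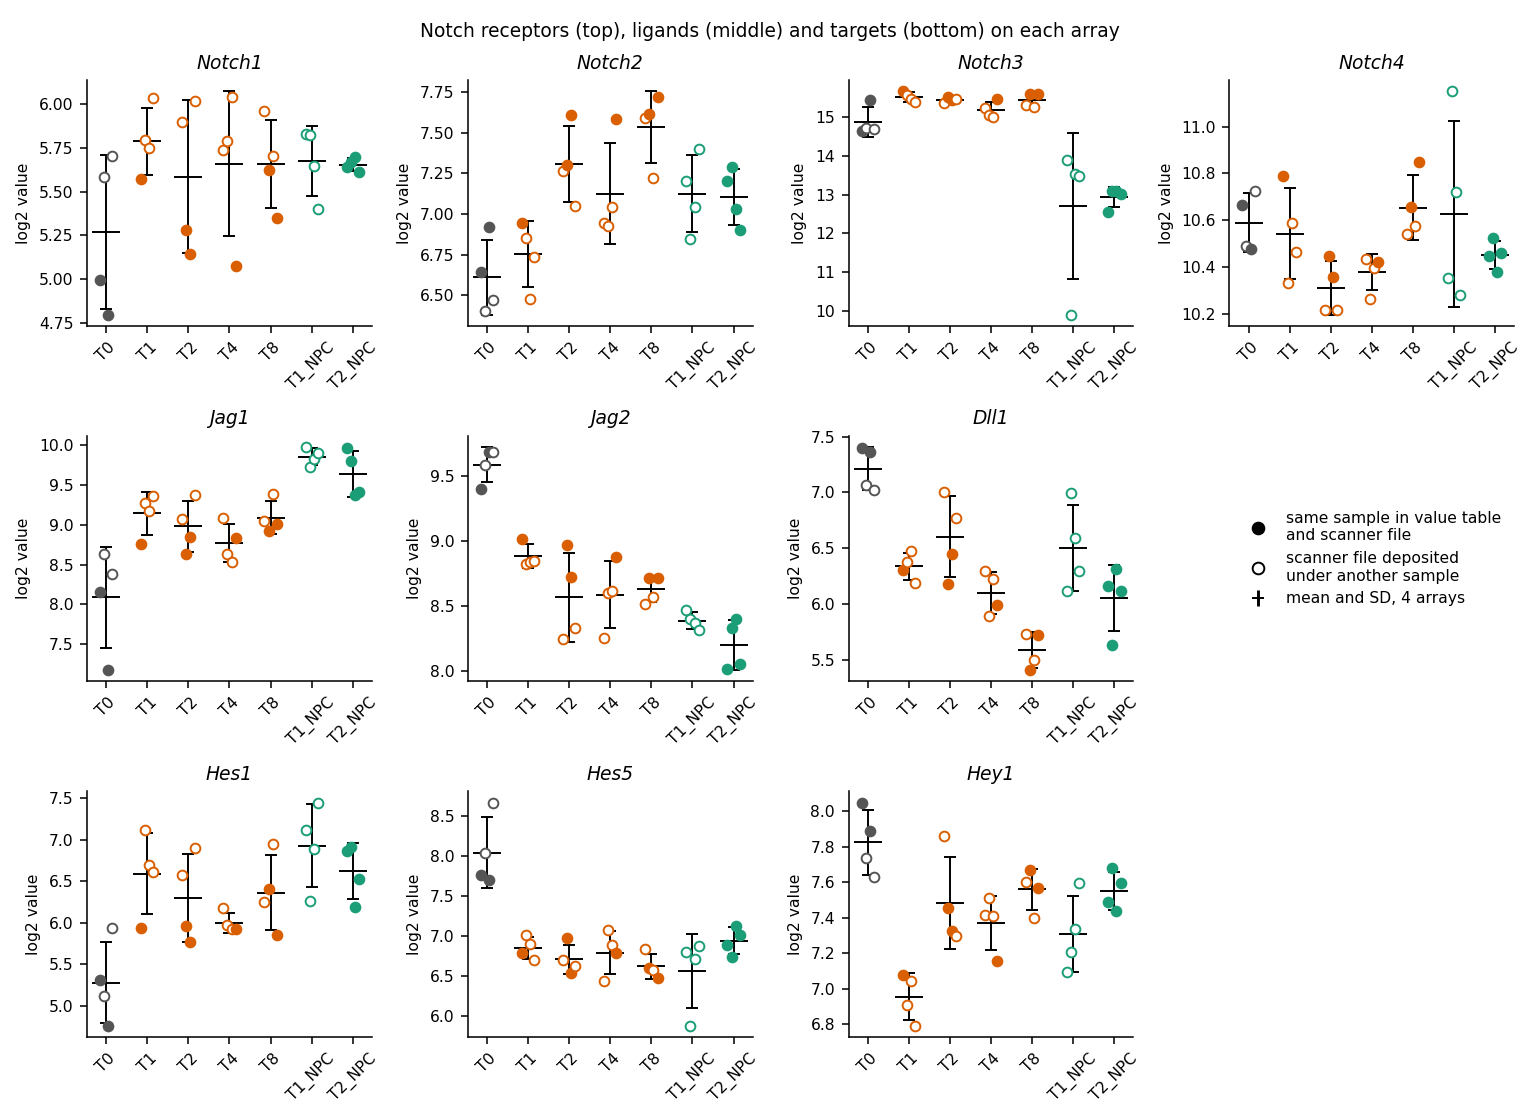
The log2 value of each gene on each array (points), by group, with the mean and SD of 4 arrays. Filled points are the arrays with the same sample in the value table and the scanner file. Notch3 is lower on all 8 transplanted arrays than on the other 20, and Jag2, Dll1 and Hes5 are higher on the T0 arrays than on all 16 injured arrays without a graft.

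After injury, genes of the set were called in both directions, as were features over the whole array. Against T0, 2 of the 10 genes were higher and 4 were lower in T1, where 19.1% of all features were higher and 25.1% were lower. At T2, 3 were higher and 4 were lower, against 17.7% and 22.2% of all features. At T4, 2 were higher and 4 lower, against 17.5% and 21.0%. At T8, 3 were higher and 3 were lower, against 18.2% and 21.5%. Genes counted here had an adjusted p under 0.05 by limma, adjusted over all 35469 features by the Benjamini-Hochberg method. The median log2 difference of the 10 genes was 0.05, 0.02, 0.05 and 0.23 in order of time, beside -0.10, -0.06, -0.06 and -0.04 over all features. Of the receptors only Notch2 was called, while all 3 ligands were called at all 4 times, Jag1 as higher and Jag2 and Dll1 as lower.

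**Figure D2:**
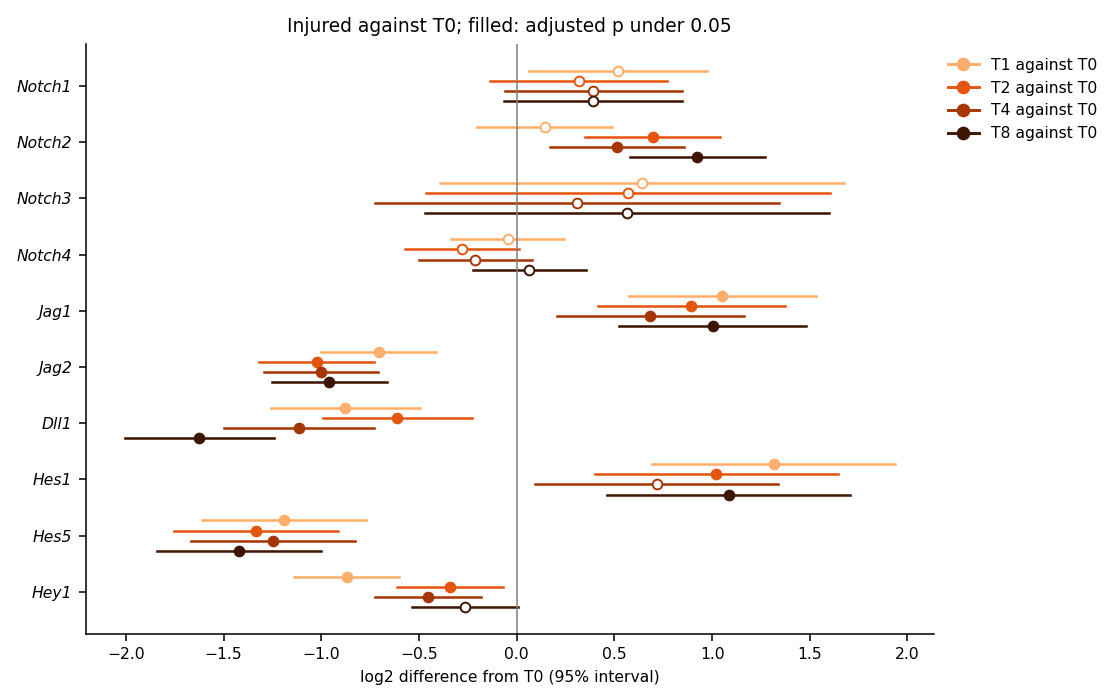
The log2 difference of each injured group from T0 (points) with its 95% interval (lines), 4 arrays a group. Filled points have an adjusted p under 0.05. Jag1 and Hes1 lie to the right of 0 at all 4 times, and Jag2, Dll1, Hes5 and Hey1 lie to the left.

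Notch2 was the receptor that rose. Its T0 arrays read 6.65, 6.41, 6.92 and 6.47, and its T1 arrays read 6.95, 6.86, 6.48 and 6.73. These groups overlapped, and the difference of 0.14 ± 0.17 (SE, n = 4 a group) had a limma adjusted p of 0.532. The later arrays lay above all T0 arrays. They read 7.26, 7.30, 7.61 and 7.05 in T2, 6.94, 6.93, 7.04 and 7.58 in T4, and 7.59, 7.61, 7.22 and 7.72 in T8. The differences from T0 were 0.70 ± 0.17 in T2 (limma adjusted p = 0.00155), 0.51 ± 0.17 in T4 (limma adjusted p = 0.0166) and 0.93 ± 0.17 in T8 (limma adjusted p = 8.36e-05). The T4 call was lost without T0 replicate 2 (0.45, limma adjusted p = 0.0564) or without T4 replicate 4 (0.36, limma adjusted p = 0.085). Notch2 also rose between T1 and T8, by 0.78 ± 0.17 (limma adjusted p = 0.00268), with no overlap between those groups.

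Notch1, the founding member of the receptor family and the one most studied in neural progenitors, did not pass the test. Its T0 arrays read 4.99, 5.58, 4.80 and 5.70, and the 16 injured arrays ranged from 5.07 to 6.04 with a median of 5.74. Of these, 10 lay above the highest T0 array. The differences were 0.52 ± 0.22 in T1 (limma adjusted p = 0.059), and 0.32, 0.39 and 0.39 at the later times. The T0 arrays split by scan session, with 4.99 and 4.80 in session 1 and 5.58 and 5.70 in session 2. With the session as a block the difference was 0.37 in T1 (limma adjusted p = 0.0193) and 0.39 in T8 (limma adjusted p = 0.0146). Within sessions the T1 difference was 0.68 in session 1, which held 1 T1 array, and 0.22 in session 2.

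Notch4, a receptor known mainly from blood vessel endothelium, stayed within a narrow range. Its T0 arrays read 10.67, 10.49, 10.47 and 10.73, and the 16 injured arrays ranged from 10.22 to 10.85. No difference from T0 exceeded 0.28 in size, and the largest, -0.28 ± 0.14 in T2, had a limma adjusted p of 0.124. With the scan session as a block the T2 difference kept its size and had a limma adjusted p of 0.0157. In a fit of the time-course arrays alone, with no block, the T2 difference had a limma adjusted p of 0.0464.

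Notch3 is shown with its probe because every Notch3 value rests on these 60 bases. The probe lies at chr7:12688876-12688935 on the minus strand of rn4, and the capitals mark its G and C bases, 68.33% of all.
Notch3 probe: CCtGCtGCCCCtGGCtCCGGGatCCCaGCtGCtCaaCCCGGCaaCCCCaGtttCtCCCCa
On the arrays without a graft its signal ranged from 14.65 to 15.66. T0 read 14.65, 14.73, 15.45 and 14.70, T1 read 15.66, 15.57, 15.47 and 15.39, and T2 read 15.38, 15.51, 15.44 and 15.47. T4 read 15.23, 15.07, 15.0015 and 15.46, and T8 read 15.32, 15.60, 15.26 and 15.59. All 16 injured arrays lay above 3 of the 4 T0 arrays, and T0 replicate 3 stood among the injured ones. The difference from T0 was 0.64, 0.57, 0.31 and 0.56 in order of time, each ± 0.50, with limma adjusted p between 0.326 and 0.681. The standard error came from the fit of all 28 arrays, which holds the wide T1_NPC group. In a fit of the 20 time-course arrays the same differences had limma adjusted p of 0.00249 in T1, 0.0066 in T2 and 0.00722 in T8, and leaving out T1_NPC replicate 2 alone gave 0.0019, 0.00554 and 0.0061.

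Jag1, a ligand of the Serrate type, rose at all 4 times. Its T0 arrays read 8.16, 8.63, 7.18 and 8.38, with replicate 3 about 1 log2 unit under the others. T1 read 8.76, 9.28, 9.17 and 9.35, T2 read 9.07, 8.63, 8.85 and 9.38, T4 read 9.08, 8.63, 8.53 and 8.84, and T8 read 9.05, 8.92, 9.39 and 9.01. Of the 16 injured arrays, 14 lay above the highest T0 array, and T1 and T8 did not overlap with T0. The differences were 1.05 ± 0.23 in T1 (limma adjusted p = 0.000624), 0.89 ± 0.23 in T2 (limma adjusted p = 0.00308), 0.68 ± 0.23 in T4 (limma adjusted p = 0.0218) and 1.00 ± 0.23 in T8 (limma adjusted p = 0.00112), or between 1.61-fold and 2.07-fold. Without T0 replicate 3 the T4 difference was 0.38 (limma adjusted p = 0.135), and without T4 replicate 1 it was 0.58 (limma adjusted p = 0.0782). Within scan session 2, which does not hold T0 replicate 3, it was 0.24, and within session 1, which held 1 T4 array, it was 1.17.

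Jag2, the other Serrate-type ligand, fell. T0 read 9.40, 9.58, 9.69 and 9.68. T1 read 9.02, 8.82, 8.84 and 8.85, T2 read 8.24, 8.97, 8.72 and 8.33, T4 read 8.25, 8.60, 8.62 and 8.87, and T8 read 8.52, 8.71, 8.57 and 8.71. All 16 injured arrays lay below the lowest T0 array. The differences from T0 were -0.71, -1.02, -1.0025 and -0.96 in T1, T2, T4 and T8, each with a standard error of 0.14, and the largest limma adjusted p of the 4 was 0.000253. Jag1 and Jag2 belong to the same structural class of ligand, and they moved in opposite directions.

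Dll1, a ligand of the Delta type that many developing neurons carry, fell furthest at the latest time. T0 read 7.40, 7.07, 7.36 and 7.02, and T1 read 6.30, 6.37, 6.48 and 6.19. T2 read 7.01, 6.18, 6.45 and 6.77, T4 read 6.29, 5.89, 6.23 and 5.99, and T8 read 5.73, 5.41, 5.50 and 5.72. Again all 16 injured arrays lay below the T0 arrays, by as little as 0.02 for T2 replicate 1. The differences from T0 were -0.88 in T1 (limma adjusted p = 0.000425), -0.61 in T2 (limma adjusted p = 0.0103), -1.11 in T4 (limma adjusted p = 3.94e-05) and -1.62 in T8 (limma adjusted p = 2.35e-07), each with a standard error of 0.19. The T2 call was lost without T2 replicate 2 (-0.47, limma adjusted p = 0.0515). Within scan session 2 the T2 difference was -0.16 (limma adjusted p = 0.514), and within session 1 it was -1.07. From T1 to T8 Dll1 fell by a further 0.75 (limma adjusted p = 0.00916), with no overlap between those groups. This T8 against T1 call did not pass with 75th percentile scaling (-0.58, limma adjusted p = 0.0524) or with normexp background correction (-0.25, limma adjusted p = 0.0838).

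Hes1, Hes5 and Hey1 are the target genes of the set. They are shown with the stretch of DNA before the start of Hes1 and of Hes5, because RBPJ, the DNA-binding partner of all 4 receptors, is known to act there. The sequences are the 250 bases before the RefSeq start of each gene on GRCr8, read along the strand of the gene, and the capitals mark GTGGGAA or the shorter core TGGGAA, on either strand. Hes1 lies at chr11:84213046-84213295 on the minus strand and Hes5 at chr5:170804327-170804576 on the plus strand.
Hes1 upstream: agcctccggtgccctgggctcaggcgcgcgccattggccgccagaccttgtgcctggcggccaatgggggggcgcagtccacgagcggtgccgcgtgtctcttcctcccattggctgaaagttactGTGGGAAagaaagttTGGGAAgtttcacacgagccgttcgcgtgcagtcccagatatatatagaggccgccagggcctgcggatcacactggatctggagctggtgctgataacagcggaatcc
Hes5 upstream: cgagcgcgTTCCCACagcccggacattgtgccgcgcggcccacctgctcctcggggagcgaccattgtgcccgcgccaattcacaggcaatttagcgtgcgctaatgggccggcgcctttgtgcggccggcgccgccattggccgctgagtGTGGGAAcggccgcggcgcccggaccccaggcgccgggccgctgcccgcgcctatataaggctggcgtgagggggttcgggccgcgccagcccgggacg
GTGGGAA starts at -124 in Hes1, with a further TGGGAA at -109 on the same strand. In Hes5 it starts at -99, and its reverse complement starts at -242. Every GTGGGAA also holds TGGGAA. The search covered both strands of 300 bases, from 250 before to 50 after the start. In that window GTGGGAA was found in 6.289% of 33469 rat promoters and TGGGAA in 25.677%. Of the 10 genes 9 had a promoter entry, and besides Hes1 and Hes5 only Dll1 held GTGGGAA, at -185 on the minus strand. Hey1 had no entry.

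Hes1 rose. It encodes a repressor that blocks neuron-promoting factors. Its T0 arrays read 5.31, 5.12, 4.76 and 5.93, and T1 read 5.93, 7.12, 6.70 and 6.62. T2 read 6.58, 5.95, 5.77 and 6.90, T4 read 6.17, 5.97, 5.92 and 5.92, and T8 read 6.25, 6.41, 6.95 and 5.85. T0 replicate 4 lay near the lowest injured arrays, and 12 of the 16 injured arrays lay above it. The differences were 1.32 ± 0.30 in T1 (limma adjusted p = 0.000912), 1.02 ± 0.30 in T2 (limma adjusted p = 0.00831), 0.72 ± 0.30 in T4 (limma adjusted p = 0.0632) and 1.09 ± 0.30 in T8 (limma adjusted p = 0.00528). The T4 value had a limma adjusted p of 0.0196 without T0 replicate 4, where the difference was 0.94.

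Hes5, a repressor of the same family that marks neural progenitors and some astrocytes, fell instead. T0 read 7.77, 8.03, 7.70 and 8.67. T1 read 6.79, 7.01, 6.90 and 6.70, T2 read 6.70, 6.97, 6.54 and 6.62, T4 read 6.43, 7.07, 6.88 and 6.78, and T8 read 6.84, 6.60, 6.57 and 6.48. All 16 injured arrays lay below the T0 arrays, with a gap between 7.07 and 7.70. The differences from T0 were -1.19, -1.33, -1.25 and -1.42 in T1, T2, T4 and T8, each with a standard error of 0.20, and the limma adjusted p ranged from 5.05e-06 to 3.94e-05.

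Hey1, a target of the related Hey family that is known from vessels and neural precursors, was lowest in T1. T0 read 8.05, 7.74, 7.89 and 7.63, and T1 read 7.08, 6.91, 7.04 and 6.79. T2 read 7.86, 7.45, 7.33 and 7.30, T4 read 7.42, 7.51, 7.41 and 7.15, and T8 read 7.60, 7.67, 7.40 and 7.57. The T1 arrays lay apart from all others, while T2 replicate 1 and T8 replicate 2 reached into the T0 range. Its differences from T0 were -0.87 in T1 (limma adjusted p = 8.09e-06), -0.34 in T2 (limma adjusted p = 0.04) and -0.45 in T4 (limma adjusted p = 0.0076), with a standard error of 0.13. At T8 its difference was -0.27 (limma adjusted p = 0.116). The T2 call was lost when T0 replicate 1 or 3, or T2 replicate 2, 3 or 4, was left out, with a limma adjusted p of 0.072 to 0.142, and with 75th percentile scaling (limma adjusted p = 0.095). Within scan session 2 the differences were -0.11 in T2 (limma adjusted p = 0.693) and -0.24 in T4 (limma adjusted p = 0.312). Within session 1 they were -0.58 and -0.82, the last from 1 T4 array.

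The scan sessions and the disputed samples touched these calls as follows. Counted over the 4 times, 25 values of the 10 genes were called. All 25 kept their direction within session 1, within session 2 (21 still called) and with the session as a block (25 still called). Session 1 held 1 T1 array and 1 T4 array, so calls within it are not counted. The session block was fitted to the time-course arrays alone, and it also called 9 of the 15 values that had not passed. These were Notch3 at all 4 times, Notch1 in T1, T2 and T8, Notch4 in T2 and Hes1 in T4. A fit of the same arrays with no block already called 4 of the 15, Notch3 in T1, T2 and T8 and Notch4 in T2. Those 4 calls did not need the block. The 12 arrays named alike in both sources are the arrays of session 1 and the 4 T2_NPC arrays. For the time course they therefore repeat the check within session 1, and on them all 25 kept their direction. With the scanner files under their deposited samples, 21 of 25 kept their direction and 0 were called.

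Few differences were seen between injured groups. Of the 10 genes, 1 was called in T2 against T1, where 1.48% of all features were, and it was Hey1, which rose by 0.53 ± 0.13 (limma adjusted p = 0.0409). That call was lost with the replicate block (limma adjusted p = 0.0576) and without any 1 of 10 arrays, among them T1 replicates 1, 2 and 4 and T2 replicates 1, 2 and 3. No gene of the set was called in T4 against T2, where 0.0761% of features were, or in T8 against T4, where 0.0902% were. At an unadjusted limma p under 0.05 these comparisons held 1 and 2 of the 10 genes, beside 3198 and 1716 of the 35469 features. In T8 against T1, where 9.87% of features were called, 3 were called. These were Notch2 and Hey1 as higher and Dll1 as lower, and Hey1 rose by 0.61 ± 0.13 (limma adjusted p = 0.00304). On the 12 arrays named alike in both sources the 3 differences were 0.72, 0.54 and -0.74. With 1 T1 array among them, the calls could not be checked there.

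Genes of the same role moved apart within single arrays. The difference between both genes was taken on each of the 20 time-course arrays. This removes a shift that both genes share on an array, but not one that differs between probes. The 16 injured arrays were set against the 4 T0 arrays. The test was an exact permutation test, two-sided, over all 4845 splits, adjusted over 12 pairs. Only the change of such a difference can be read, since signals of different probes have no common scale.

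**Figure D3:**
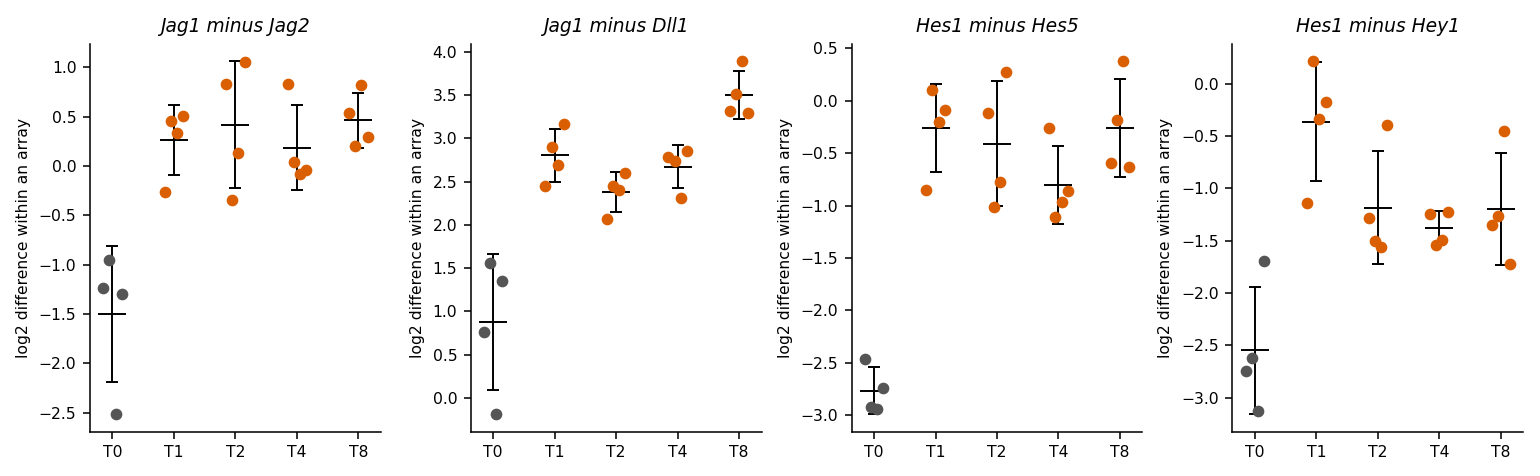
The log2 difference between both genes of a pair on each time-course array (points), with the mean and SD of 4 arrays. For Jag1 minus Jag2, Jag1 minus Dll1 and Hes1 minus Hes5 every injured array lies above every T0 array, and for Hes1 minus Hey1 1 T8 array, at -1.72, lies just under the highest T0 array, at -1.70.

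Jag1 gained 1.83 on Jag2. The difference was -1.50 ± 0.69 (SD, n = 4) on the T0 arrays and 0.33 ± 0.42 (SD, n = 16) on the injured arrays, with no overlap (adjusted exact permutation p = 0.000826). Jag1 gained 1.96 on Dll1, from 0.88 ± 0.78 to 2.84 ± 0.49, also with no overlap and the same p. Jag2 and Dll1 fell together, and their difference changed by 0.13 (adjusted exact permutation p = 0.746). The raw p of 0.000206 behind the first values is the smallest that 4845 splits can give.

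Hes1 gained 2.33 on Hes5, from -2.76 ± 0.22 to -0.43 ± 0.48 (adjusted exact permutation p = 0.000826). It gained 1.52 on Hey1 (adjusted exact permutation p = 0.00124). Hes5 changed by -0.82 against Hey1 (adjusted exact permutation p = 0.00708), and without T0 replicate 4 the change was -0.54 (adjusted exact permutation p = 0.0573). Among the receptors, Notch2 gained 0.69 on Notch4 (adjusted exact permutation p = 0.0066) and Notch3 gained 0.64 on Notch4 (adjusted exact permutation p = 0.00545). Notch1 gained 0.52 on Notch4 (adjusted exact permutation p = 0.0486), a value that did not pass when any 1 of 12 arrays was left out. The other 3 receptor pairs changed by 0.16 or less. With the session means removed, Hes1 against Hes5 changed by 2.28 and Jag1 against Jag2 by 1.75, both with an adjusted exact permutation p of 0.000495.

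Other genes of the pathway were taken from lists arranged by role, and 38 of the 47 listed were on the array. Against T0, 13 were higher and 6 lower in T1, 10 and 6 in T2, 14 and 6 in T4, and 10 and 5 in T8. The shares over all features, given above for the same comparisons, were 17.5% to 19.1% higher and 21.0% to 25.1% lower. The median difference of the 38 was 0.16 in T1 and between 0.03 and 0.05 later.

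**Figure D4:**
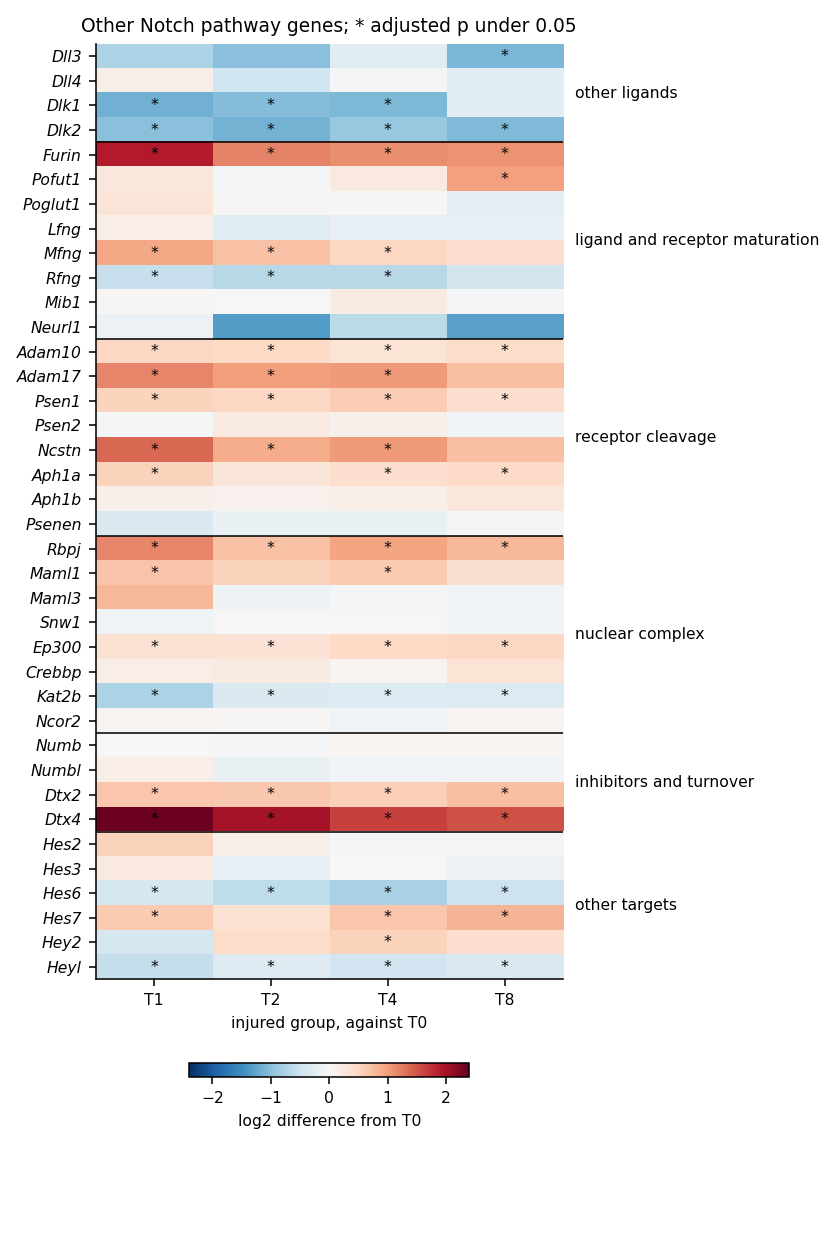
The log2 difference from T0 of 38 other Notch pathway genes at 4 times after injury (colour), grouped by role, with an asterisk where the adjusted p is under 0.05. None of the 8 receptor cleavage genes was called lower at any time, and none of the 4 other ligands was called higher.

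The other ligands moved downward or did not pass. Of the 4 on the array, 2 were lower at each time. Dlk2, a noncanonical ligand, fell at all 4 times, with differences of -1.0001 ± 0.19 in T1 and -1.07 ± 0.19 in T8. Dlk1 fell in T1 (-1.15), T2 and T4 and had a difference of -0.28 in T8 (limma adjusted p = 0.558). Dll3 fell in T8 alone, with a difference of -1.1007 ± 0.42 (limma adjusted p = 0.0386). Dll4, the Delta ligand of sprouting vessels, had a difference of 0.14 ± 0.52 in T1 and -0.28 in T8.

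Genes that ready and cut the receptor stood higher where they were called, with Rfng as the exception. Furin, a protease that processes Notch on its way to the membrane, rose by 1.91 ± 0.11 in T1 and by 1.08 in T8. Rfng, a glycosyltransferase of the Fringe family, fell by 0.54 ± 0.18 in T1. Of the 8 cleavage genes 5 rose 1 week after injury, and 4, 5 and 3 at the later times. The largest rise in T1 was in Ncstn, a subunit of gamma-secretase, at 1.38 ± 0.30, and the lowest value was in Psenen, another subunit, at -0.35 (limma adjusted p = 0.0926). Of the 8 genes of the nuclear complex, 3 rose and 1 fell in T1. Rbpj rose by 1.17 ± 0.13 in T1 and stayed 0.79 above T0 in T8. Kat2b, a histone acetyltransferase, fell by 0.76 ± 0.11 in T1. Among inhibitors and turnover genes, 2 of 4 rose at each time, led by Dtx4, a ligase of the Deltex family, at 2.36 ± 0.14 in T1.

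The other genes of the Hes and Hey families, listed as other targets, were split, as Hes1 and Hes5 were. Whether each of them is driven by Notch in this tissue was not tested. Hes6 and Heyl fell at all 4 times, with differences of -0.43 ± 0.15 and -0.57 ± 0.11 in T1. Hes7 rose in T1 (0.63 ± 0.20), T4 and T8. Hey2 had -0.42 in T1 (limma adjusted p = 0.0781) and rose in T4 by 0.54 ± 0.19 (limma adjusted p = 0.0248). Hes2 and Hes3 did not pass at any time. Of the 38 genes, 4 were not well above background on all 28 arrays: Dll4 on 23 of them, Hes2 on 18, Hes3 on 25 and Neurl1 on 14.

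Marker genes of the cell types in the tissue were read over the same weeks. Over all features, 17.5% to 19.1% were higher and 21.0% to 25.1% were lower than in T0 at the 4 times. Neuron markers fell in 10 of 11 genes in T1 and 11 of 11 in T2, and the mean log2 value of the list went from 12.03 to 12.32 on the T0 arrays to 10.04 to 10.99 on the T1 arrays. Snap25 fell most, with a difference of -2.32 ± 0.41 in T1. Microglia and macrophage markers rose in 7 of 7 genes at each time, Cd68 by 7.05 ± 0.16 in T1. Fibroblast markers rose in 6 of 6, Col3a1 by 6.34 ± 0.50 in T1. Mural cell markers, of the cells that Notch3 is best known from, rose in 5 of 9 genes in T1 with 0 lower. Their mean went from 10.39 to 10.65 in T0 to 11.20 to 11.42 in T1. In T2, T4 and T8, 4, 4 and 5 of the 9 mural markers were higher and 1, 2 and 1 were lower. Endothelial markers rose in 5 of 10 genes and fell in 1 in T1, the lowest being Kdr (-0.49) and the highest Tie1 (2.10). Astrocyte markers fell in 4 of 8 and rose in 1 in T1, the lowest being Gjb6 (-2.59) and the highest Gfap (0.86). At the later times 2, 1 and 1 of the 8 were lower and 1, 2 and 1 were higher. In T8 against T1, 5 of the 8 were higher, where 5.45% of all features were. Neural progenitor markers rose in 2 and fell in 3 of 10 genes in T1, near the shares over all features. They rose in 4, 5 and 5 with none lower at the later times. Oligodendrocyte markers fell in 4, 5, 3 and 5 of 6 genes. Schwann cell markers rose in 3 of 4 genes at each time, and the other 1 was lower in T1, T4 and T8. Of 5 ependymal markers, 2 were lower in T1 and 2 were higher in T4 and in T8. The part of these shifts in the values of the 10 genes was not tested.

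After transplantation the value that stood out was Notch3, which is the value the set was chosen with. On the T1_NPC arrays it read 13.89, 9.90, 13.53 and 13.48, beside 15.39 to 15.66 on the T1 arrays. On the T2_NPC arrays it read 12.56, 13.08, 13.09 and 13.02, beside 15.38 to 15.51 on the T2 arrays. All 8 transplanted arrays lay below all 20 others. The differences of the means were -2.82 for T1_NPC and -2.51 for T2_NPC. Without T1_NPC replicate 2 the first was -1.89, with a mean of 13.64 ± 0.22 (SD, n = 3). Under the scanner files' deposited samples the first turned to 0.43 and the second was -2.53. On the arrays named alike in both sources the second was -2.54 and the first could not be computed.

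**Figure D5:**
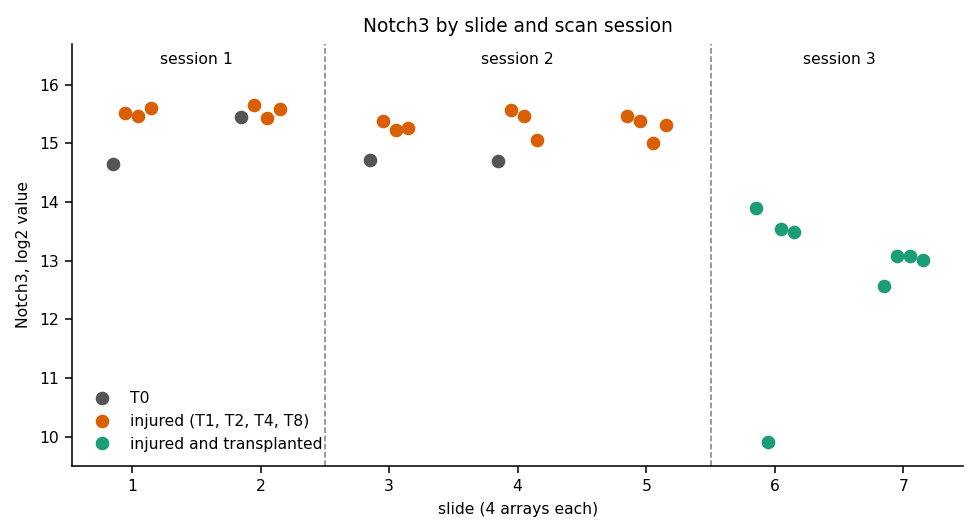
The Notch3 log2 value of each array (points), placed by slide, with dashed lines between the 3 scan sessions. All 8 arrays of slides 6 and 7, which hold the transplanted groups, lie between 9.90 and 13.89, and the 20 arrays of slides 1 to 5 lie between 14.65 and 15.66.

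Both transplanted groups had their own slide and shared a scan session with no other group, so graft, slide and session cannot be told apart. These slides follow the value table's names. The scanner files deposited as T1_NPC lie on slide 5 of session 2, and slide 6 then holds files of T0, T1, T4 and T8. Beside the Notch3 values, 74.5% to 76.4% of probes were well above background on the T1_NPC arrays and 79.0% to 81.9% on the T1 arrays, and T1_NPC replicate 2 was the lowest of all 28 arrays. The share was 78.0% to 80.9% on the T2_NPC arrays and 75.1% to 81.3% on the T2 arrays. The part of this in the result was not tested. Of the 9 mural cell markers, Myh11 was called higher in T1_NPC against T1 (0.52 ± 0.16, limma adjusted p = 0.0377) and none was called lower, with 5.45% of all features higher and 6.46% lower. With 75th percentile scaling the share of called features that were lower moved from 54.25% to 28.66% in that comparison. In T2_NPC against T2 none of the 9 was called (4.62% of features higher, 4.85% lower), and their median difference was -0.23, beside -0.03 over all features, with -0.44 in both Rgs5 and Des. The mean log2 value of the list was 11.28 to 11.61 in T1_NPC and 10.73 to 11.02 in T2_NPC, beside 11.20 to 11.42 in T1 and 10.78 to 11.21 in T2. The part of mural cells in the Notch3 values was not tested.

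The other 9 genes differed less. Jag1 read 9.97, 9.72, 9.82 and 9.90 in T1_NPC, above all T1 arrays, and 9.96, 9.80, 9.37 and 9.41 in T2_NPC, of which 3 lay above all T2 arrays. Its mean differences were 0.71 and 0.66. Jag2 read 8.47, 8.40, 8.37 and 8.31 in T1_NPC, below all T1 arrays, and 8.02, 8.33, 8.40 and 8.05 in T2_NPC, of which 2 lay below all T2 arrays. Its mean differences were -0.50 and -0.37. In these 2 genes the means of the transplanted groups lay further from T0 than those of the injured groups did. The same held for Hes1, with means of 6.93 in T1_NPC and 6.62 in T2_NPC, beside 6.59 in T1, 6.30 in T2 and 5.28 in T0.

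Dll1 differed by 0.16 in T1_NPC and by -0.55 in T2_NPC. Notch2 differed by 0.37 and -0.20, Notch1 by -0.11 and 0.07, and Notch4 by 0.08 and 0.14. Of the targets, Hes1 differed by 0.34 and 0.32, Hes5 by -0.28 and 0.23, and Hey1 by 0.35 and 0.07. All 4 T1_NPC arrays of Hey1, at 7.09 to 7.59, lay above the T1 arrays. Hes5 read 5.88 on T1_NPC replicate 2, the array on which Notch3 was also lowest, and 6.71 to 6.87 on the other 3 arrays.

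Of the 38 other pathway genes, 4 were higher and 3 lower in T1_NPC against T1, and 5 were higher and 3 lower in T2_NPC against T2. Over all features the shares were 5.45% and 6.46% in the first comparison and 4.62% and 4.85% in the second. Snw1, a cofactor in the nuclear complex, fell, with differences of -1.0028 ± 0.19 in T1_NPC (limma adjusted p = 0.00156) and -1.16 ± 0.19 in T2_NPC (limma adjusted p = 0.000544). Poglut1, which adds glucose to the receptor, rose by 0.93 ± 0.15 and 0.75 ± 0.15 (limma adjusted p = 0.000249 and 0.00215). Numb, an inhibitor of Notch, rose by 0.43 ± 0.11 in both comparisons (limma adjusted p = 0.0164 and 0.0192). Aph1b, a subunit of gamma-secretase, rose by 0.85 ± 0.17 in T1_NPC (limma adjusted p = 0.00277). Dll4 differed by 1.24 ± 0.52 and 1.26 ± 0.52 and did not pass (limma adjusted p = 0.125 and 0.135). Dlk1 rose in T1_NPC by 1.09 ± 0.33 (limma adjusted p = 0.0349) and differed by -0.24 in T2_NPC. Hes3, well above background on 2 of the 4 T1_NPC arrays, fell there by 1.37 ± 0.27 (limma adjusted p = 0.00214), as did Rbpj, with a difference of -0.52 ± 0.13 (limma adjusted p = 0.0124), a gene named here after its value was seen. In T2_NPC, Hes7 rose by 0.78 ± 0.20, and Hes6 and Hey2 fell, with differences of -0.49 ± 0.15 and -0.62 ± 0.19. The slide and session limit holds for these values as well.

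Over the 20 time-course arrays the features most like each gene were taken by Pearson correlation among 15640 features with a known symbol, as a description, since arrays of 1 group share their condition. Jag2 was most like Abca7 (r = 0.97) and Samd14 (0.97), and Hes5 like RGD1564579 (0.97) and Pde4a (0.95). Jag1 was most like Bfsp1 (0.91) and Cyth4 (0.91), and Hes1 like Ccdc80 (0.91) and Htra3 (0.89). Notch2 was most like Tnfrsf4 (0.92), Hey1 like Rnf167 (0.92), Notch1 like Znf496 (0.92) and Dll1 like Lppr5 (0.91). Notch3 was most like Nup37 (0.91) and Rpl13 (0.91), a ribosomal protein gene. Notch4 had no feature above 0.78, the value of Klhdc9. Within the set, r was 0.86 between Jag1 and Hes1 and also 0.86 between Jag2 and Hes5, and it was -0.72 between Jag1 and Jag2.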

How the data were processed

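Total RNA of a cord segment was hybridised to 28 single-colour Agilent rat arrays. The authors deposited Agilent Feature Extraction 10.7.1.1 scanner files with spot intensity, annotated on rn4, and a table of log2 values that they had background corrected and quantile normalized across arrays. The log2 table was used. Of 45018 spots, 43379 were no controls; they were averaged to 41012 probes and 35469 gene names. Limma 3.58.1 in R 4.3.3 was fitted to all 28 arrays with group means, adjusted by Benjamini-Hochberg, with calls under 0.05. Of the scanner intensity, processed signals, median signals and flags were used, and the flags, slide and session of an array came from the scanner file with the same order of signals. Between 74.5% and 82.7% of probes an array were well above background, and their number of arrays limits the precision. Replicates are separate animals by the study's methods, not by the labels. Replicate numbers did not pair the samples: of 84 same-numbered pairs, 19 had a correlation of deviations over 0.1 (median 0.00245).

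The 10 genes and the lists were chosen with earlier results of these data known. Named genes were the 10, the largest rise and fall of each list, and any other ligand or target. Of the lists, 3 genes were found by an older symbol and 1 by accession. Correlations were ranked over the 20 time-course arrays. The fits were tested on simulated data. Promoters and names came from RefSeq (GRCr8). Exact tests used Python 3.11.15. Alternatives changed the source of the signal, its scaling, background correction, filter, probe summary, blocks, samples and fold, and left out each array.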

Additional observations from a re-analysis of the deposited data

Results flagged for a closer look

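Single arrays stood apart from the other 3 of their group in 5 of the 70 groups of 4 arrays examined (10 genes in 7 groups), by a gap to the nearest array that passed the 95% critical value of Dixon's ratio. Chance flags about 1 group in 20. Notch3 gave 3 of the 5. It read 15.45 on T0 replicate 3, above the other T0 arrays, 9.90 on T1_NPC replicate 2, below the others, and 12.56 on T2_NPC replicate 1, below the others. Hes5 read 5.88 on T1_NPC replicate 2, the same array, and Jag2 read 9.02 on T1 replicate 1, above the others.

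Notch2 differed in direction between the transplantations, with 0.37 in T1_NPC against T1 and -0.20 in T2_NPC against T2, and that difference was not tested.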

How the results depend on the processing

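Reading the scanner files under their deposited samples, in place of the value table's names, moved the results most. With the scanner files under their deposited samples, 0 of the 10 genes were called in T1, T2, T4 and T8 against T0, in T2 against T1 and in T8 against T1, and 0 pairs were called. Differences that then turned sign were Notch3 in T1_NPC (0.43), T2 against T1 (0.46) and T8 against T1 (0.0715), Jag2 in T1 and T2 against T0 (0.0029 and 0.10) and T2 against T1 (0.10), Hes5 in T1 and T2 against T0 (0.27 and 0.20) and in T2_NPC (-0.20), Notch4 in T8 against T0 (-0.0644) and T1_NPC (-0.17), Notch1 (0.22), Jag1 (-0.17) and Hes1 (-0.12) in T1_NPC, Notch2 in T2_NPC (0.0652), Notch2 minus Notch3 (-0.85) and Hes5 minus Hey1 (0.33). The 12 arrays named alike in both sources held 1 T1 array, so the calls in T2 against T1 and T8 against T1 could not be checked there.

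Requiring a change of at least 2-fold left 3 genes in T1, 3 in T2 and 3 in T4 against T0, and 0 in T2 against T1 and T8 against T1. Scan session 1 held 1 T1 array and 1 T4 array, so calls that involve T1 or T4 could not be checked within it. In T2 against T1, 2 genes were called with the session or the slide as a block (fixed or random), and 0 within session 2, with normexp or with the compared groups alone. Replicate numbers did not pair the samples; with the replicate block 0 genes were called in T2 against T1, and all 25 calls against T0 stayed. Notch3 in T2_NPC was -2.83 with 75th percentile scaling and -2.80 with normexp. The median difference over all features under that scaling was -0.27 (-0.10 before) in T1 and -0.16 (-0.06 before) in T4 against T0, 0.12 in T2 and 0.15 in T8 against T1, and 0.11 in T1_NPC.

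Small differences that were not called also turned sign. In T8 against T1 these were Notch1 (0.0628 with 75th percentile scaling, 0.0169 with the slide and 0.0167 with the session as a block), Jag1 (0.21 on the arrays named alike and within session 1, 0.0214 with the slide and 0.055 with the session as a block), and Hes1 (0.19) and Notch4 (-0.0376) on the arrays named alike and within session 1. The others were Notch1 in T2 against T1 (0.10 within session 2), Notch4 against T0 in T1 (0.22 on the arrays named alike and within session 1) and T8 (-0.0505 within session 2), and Notch1 minus Notch3 (0.0532 by rank order).

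Leaving out each array in turn gave 0 to 1 genes called in T2 against T1. Ranges that crossed 0 were Notch1 in T2_NPC (-0.0792 to 0.21), Notch4 in T1 against T0 (-0.13 to 0.0244) and in T1_NPC (-0.0909 to 0.20), Jag1 in T8 against T1 (-0.18 to 0.0207), Notch1 minus Notch2 (-0.42 to 0.025), Notch1 minus Notch3 (-0.46 to 0.0898) and Notch2 minus Notch3 (-0.0389 to 0.14). Over all features, counts ranged from 13758 to 16539 in T1 against T0 and from 1 to 114 in T4 against T2. Apart from what an alternative's fewer arrays or stricter fold sets, the cause was not tested. With 4 arrays a group and 1 probe a gene, differences within the standard errors given were not detectable. Differences larger than their standard error could also fail to pass. Hes1 in T4 against T0 was such a case, at 0.72 ± 0.30 (SE, limma adjusted p = 0.0632).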
